A study of Mus musculus with 6 samples.

Results

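The genes described here are 9 genes that encode enzymes of collagen modification, of the 27179 genes measured in B16F10 cells. They are P4ha1, P4ha2 and P4ha3 (prolyl 4-hydroxylase alpha subunits), Plod1, Plod2 and Plod3 (lysyl hydroxylases), and Lox, Loxl1 and Loxl2 (lysyl oxidases). They were taken by symbol from the deposited table. They were chosen by an earlier result on these data, the authors' fold change of P4ha1, which is not used here. B16F10 is an established mouse melanoma line with the label WT for genotype. All cells grew in DMEM with serum and received 0.01% ozonated olive oil (OZO) or 0.01% olive oil (OLO) for 6 h, and RNA was sequenced from 3 samples per group. The labels do not say whether these were separate cultures, although a figure legend of the study speaks of independent experiments, and every group comes from 1 cell line. Per-library values were not used here, so each level below is the authors' mean over the 6 libraries of both groups, with no error and no test. A difference between OZO and OLO was therefore not tested.

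Collagen chains are modified in the endoplasmic reticulum before they fold. Prolyl 4-hydroxylase hydroxylates proline residues, which makes the triple helix stable at body temperature. Its alpha subunit carries the catalytic site and its beta subunit is protein disulfide isomerase, encoded by P4hb. Lysyl hydroxylases act on lysine residues, and the hydroxylysines carry sugars and take part in cross-links. Prolyl and lysyl hydroxylases both need iron, 2-oxoglutarate, oxygen and ascorbate. Lysyl oxidases are copper enzymes that act outside the cell and begin the cross-linking of collagen and elastin.

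The levels of the 3 prolyl 4-hydroxylase alpha subunits ran from 197.8 CPM (counts scaled to a common library size) for P4ha1 to almost no reads for P4ha3, and so the promoters of these genes are shown. The sequences are from RefSeq (GRCm38.p6, the build also known as mm10), run 5′ to 3′ on the strand of the gene, and cover 250 bases before to 50 after the start. Capitals mark ACGTG or GCGTG on either strand, so that a match on the other strand reads CACGT or CACGC. These letters are the core bound by hypoxia-inducible factors. The windows lie at chr10:59323046-59323345 for P4ha1, chr11:54100674-54100973 for P4ha2 and chr7:100285270-100285569 for P4ha3, all on the plus strand. The start is that of a RefSeq transcript, and for P4ha2 it lies inside the GENCODE gene given further on, which begins upstream of the window.
P4ha1: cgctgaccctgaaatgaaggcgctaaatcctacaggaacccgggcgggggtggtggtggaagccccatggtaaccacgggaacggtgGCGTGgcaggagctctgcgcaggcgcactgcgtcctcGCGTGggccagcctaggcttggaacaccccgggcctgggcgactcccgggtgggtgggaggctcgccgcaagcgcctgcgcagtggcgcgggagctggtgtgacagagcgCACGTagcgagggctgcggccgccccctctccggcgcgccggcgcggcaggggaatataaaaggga
P4ha2: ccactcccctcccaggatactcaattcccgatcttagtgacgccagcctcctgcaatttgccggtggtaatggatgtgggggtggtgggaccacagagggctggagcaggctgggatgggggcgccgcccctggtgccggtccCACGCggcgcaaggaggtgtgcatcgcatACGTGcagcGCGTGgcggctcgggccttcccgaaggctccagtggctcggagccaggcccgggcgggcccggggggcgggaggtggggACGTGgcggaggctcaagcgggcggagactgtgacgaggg
P4ha3: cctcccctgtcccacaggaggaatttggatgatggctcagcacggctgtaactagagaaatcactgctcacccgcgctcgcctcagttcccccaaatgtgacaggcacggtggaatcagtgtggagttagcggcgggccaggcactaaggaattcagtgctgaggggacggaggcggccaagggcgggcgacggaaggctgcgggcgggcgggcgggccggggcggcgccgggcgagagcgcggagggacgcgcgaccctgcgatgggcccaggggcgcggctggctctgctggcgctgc

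The P4ha1 window held 3 matches, of which the nearest to the start lay from -16 to -12 on the other strand. The P4ha2 window held 4 matches, including one from 11 to 15 after the start. No match was present in the P4ha3 window. Of the 32851 promoter windows of this length in the RefSeq table, 43.8% held at least 1 match and 8.93% held 3 or more. Both motifs contain a CG pair, and these shares were not taken among windows with similar numbers of CG pairs. Windows on chromosome 18, the chromosome of Lox, were left out of the search for the 9 genes. The search then gave windows for 5 of the 9 genes. Those not shown held 2 matches (Plod1) and 4 matches (Plod3). All 5 windows held more CG pairs than the median of 7 over all windows. The numbers were 32 in P4ha1, 26 in P4ha2, 30 in P4ha3, 25 in Plod1 and 19 in Plod3. Fewer CG pairs were present in 90.5%, 83.1%, 88.3%, 81.6% and 71.9% of all windows, in the same order. Matches and CG pairs are descriptions of 5 windows, whose relation to the levels was not tested, and binding was not measured.

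The melanocyte lineage of the cells was checked first by marker genes, which do not identify the line itself. All 8 melanocyte genes were at 108.5 CPM or more, up to 7052 CPM for Dct, where CPM is given as 2 to the power of the mean log2 CPM in the table. The summed level was 17688 CPM for the melanocyte genes, 5.40 for 5 fibroblast genes, 1.36 for 3 endothelial genes and 5.62 for 4 leukocyte genes. The 4 keratinocyte genes were between 0.0255 CPM, the value that the 0.5 added reads give a gene without reads, and 0.0367 CPM. At the level of single markers, Krt5 had no read in any library, and Cd68 had 5.47 CPM, the highest of the 4 leukocyte genes. Of the 27179 genes, 6025 had no reads at all. Library sizes had a geometric mean of 19641946 reads, recovered from the value that these genes share, and 1 CPM therefore equals 19.6 reads per library. In bulk RNA, fewer cells that express a gene and less RNA per cell cannot be told apart.

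In CPM, the 9 genes fell into a well expressed group, 1 weakly expressed gene and a group almost without reads. Levels of 5 genes lay between 46.2 and 210.1 CPM, Loxl2 stood at 5.08 CPM, and P4ha3, Loxl1 and Lox were below 1 CPM. At least 1 CPM was reached by 6 of the 9 genes (66.7%), and by 11878 of all 27179 genes (43.7%). The median of the 9 genes was 46.2 CPM and that of all genes was 0.357 CPM, neither divided by gene length. These shares describe genes that were chosen with results in view and were not tested.

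**Figure D1:**
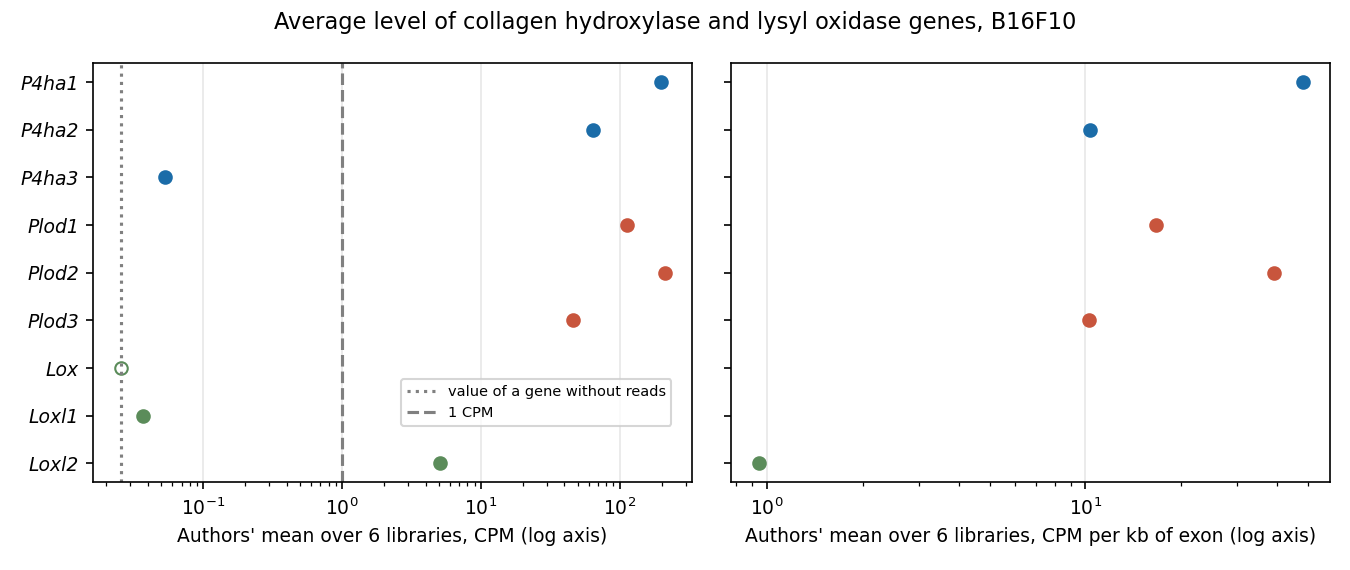
The authors' mean level over 6 libraries for each of the 9 genes, as CPM on a log axis (left) and, for the 6 genes with at least 1 CPM, as CPM per kb of exon on a log axis (right). Points are blue for prolyl 4-hydroxylase subunits, red for lysyl hydroxylases and green for lysyl oxidases. Lox (open point, no reads) lies on the value of a gene without reads, P4ha3 and Loxl1 lie between it and 1 CPM, and the other 6 genes lie above 1 CPM.

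P4ha1, the main catalytic subunit of the enzyme in many cell types, had a mean log2 CPM of 7.63, or 197.8 CPM. This level rested on at least 23309 reads over the 6 libraries and was above that of 96.1% of all genes. P4ha1 lies on chromosome 10 from 59323296 to 59373304 (GRCm38, plus strand), and no other annotated gene overlaps it. The genes next to it in CPM, which was not divided by length here, were Tjp1 and Ahsa1 just below and Emc3 and Dnajc7 just above, all at 197.8 or 197.9 CPM. This nearness is one of average CPM only and says nothing of a shared pattern.

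P4ha2, which encodes the second alpha subunit, had a mean log2 CPM of 6.01, or 64.4 CPM, from at least 7592 reads. It lies on chromosome 11 from 54100095 to 54131665 on the plus strand, with no overlapping gene. CPM grows with the length of a gene as well as with its expression, so ratios between genes were taken per kb of all annotated exons joined, whereas the positions among all genes are in CPM. This gave 48.1 CPM per kb for P4ha1 and 10.3 for P4ha2. P4ha1 was thus 4.66 times as high as P4ha2 per kb. The ratio was 2.32 with the longest transcript as the length, since the 15 annotated transcripts of P4ha2 join to 6239 bases of exon and its longest one has 3060.

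P4ha3, the third alpha subunit, was close to the lower limit of the measurement. Its mean log2 CPM was -4.24, the value that follows when (2 × reads + 1) multiplied over the 6 libraries equals 81. Only 5 sets of whole reads give this product, from 1 read in each of 4 libraries (4 reads in all) to 40 reads in 1 library. The average does not tell which set occurred, or which treatment the reads came from. P4ha3 lies on chromosome 7 from 100285520 to 100319699 on the plus strand, with no overlapping gene. Of the summed level of the 3 alpha subunits per kb, P4ha1 made up 82.3% and P4ha2 17.7%. With the longest transcript as the length, these shares were 69.9% and 30.1%. No share is given for P4ha3, whose value is set in good part by the 0.5 reads added to each count.

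P4hb, the beta subunit, had 795.7 CPM. Per kb its level was 278.1 CPM, which was 4.76 times the sum of the 3 alpha subunits, and 3.19 to 4.76 times under the 3 lengths used. P4hb also works as a free disulfide isomerase on many other proteins. P4htm, a transmembrane prolyl hydroxylase related to these enzymes, was at 0.289 CPM.

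Among the lysyl hydroxylases, Plod2 had a mean log2 CPM of 7.72, or 210.1 CPM, from at least 24764 reads. Plod2 encodes the enzyme that hydroxylates lysines in the telopeptides, the ends of the collagen chain where cross-links form. Its level was above that of 96.5% of all genes. It lies on chromosome 9 from 92542223 to 92608428 on the plus strand, and Gm38391 overlaps an exon of it on the opposite strand. Because the strand setting of the counting is not given in the sources used here, reads of such overlapping genes cannot be assigned with certainty.

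Plod1, which encodes a lysyl hydroxylase of the helical part of the chain, had a mean log2 CPM of 6.82, or 112.6 CPM, from at least 13269 reads. It lies on chromosome 4 from 147909753 to 147936767 on the minus strand without an overlapping gene. Plod3, whose product can also add sugars to hydroxylysine, had a mean log2 CPM of 5.53, or 46.2 CPM, from at least 5447 reads. It lies on chromosome 5 from 136987019 to 136996648 on the plus strand, and Mir702 (same strand) and Znhit1 (opposite strand) overlap its exons.

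Per kb of exon, Plod2 stood at 39.0 CPM, Plod1 at 16.6 and Plod3 at 10.2. Plod2 was 2.34 times as high as Plod1 and 3.81 times as high as Plod3. Of the summed level of the 3 genes, Plod2 made up 59.2%, Plod1 25.3% and Plod3 15.5%, and Plod2 remained the largest share with either other length (58.0% and 56.1%). Unlike the alpha subunits, where P4ha3 was almost without reads, all 3 lysyl hydroxylases were above 40 CPM. Colgalt1, the galactosyltransferase that acts on hydroxylysine, had 21.2 CPM per kb, so that Plod2 was 1.84 times as high.

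Of the 3 lysyl oxidases, Loxl1 and Lox were below 1 CPM. Lox, the founding enzyme of the family, had no read in any of the 6 libraries, and 3 reads over all libraries, the approximate upper 95% limit for a count of 0, would correspond to 0.0255 CPM. This limit covers counting error only. Lox lies on chromosome 18 on the minus strand, and AC161119.1 overlaps an exon of it on the opposite strand, so that the unknown strand setting bears on its count as well. Loxl1, which takes part in elastic fibre assembly, had a mean log2 CPM of -4.77, where the product of (2 × reads + 1) equals 9. That product leaves either 1 read in each of 2 libraries or 4 reads in 1 library. Loxl1 lies on chromosome 9 from 58287738 to 58313186 on the minus strand, with no overlapping gene.

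Loxl2, a lysyl oxidase of basement membrane and tumour matrix, was the only lysyl oxidase of the 9 genes above 1 CPM. Its mean log2 CPM was 2.35, or 5.08 CPM, from at least 596 reads, a level above that of 63.9% of all genes. It lies on chromosome 14 from 69609068 to 69695834 on the plus strand, and Mir6950 (same strand) and Gm27177 (opposite strand) overlap its exons. Per kb of exon Loxl2 stood at 0.940 CPM. This was lower than Plod3 per kb, which was 10.9 times as high, and than P4ha1 per kb, which was 51.1 times as high.

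The remaining lysyl oxidase genes were in a list with Loxl3 and Loxl4. Loxl3 had 28.4 CPM and Loxl4 0.219 CPM. Per kb Loxl3 was at 6.16 CPM, 6.55 times as high as Loxl2, so the highest lysyl oxidase in these cells was not one of the 9 genes.

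**Figure D2:**
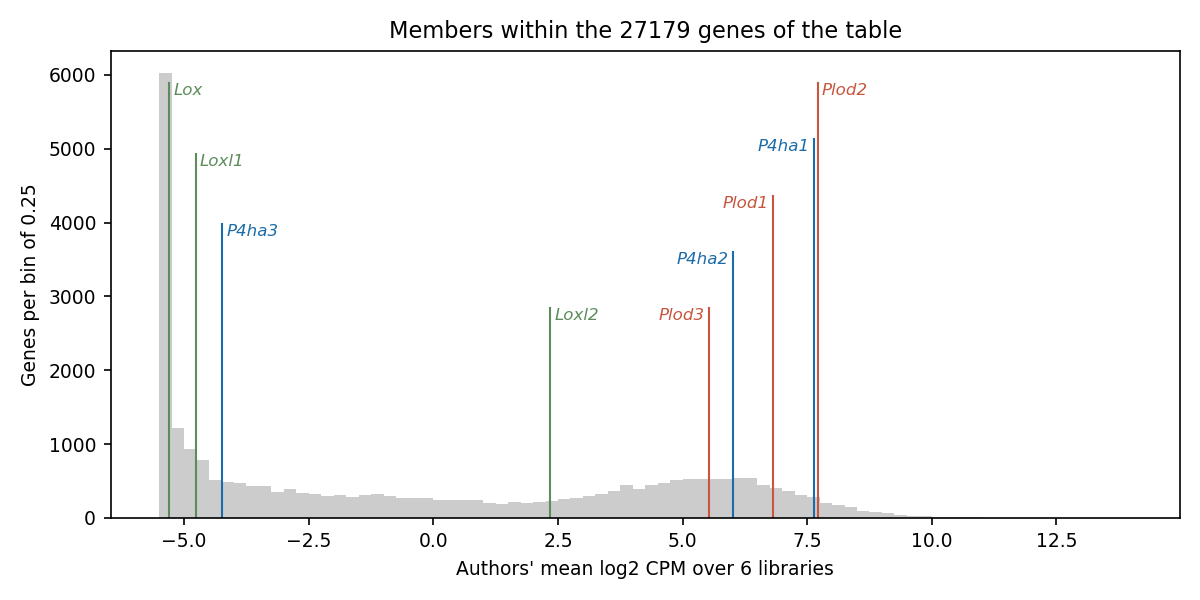
Histogram of the authors' mean log2 CPM over 6 libraries for the 27179 genes of the table, in bins of 0.25, with a coloured line at the value of each of the 9 genes (blue for prolyl 4-hydroxylase subunits, red for lysyl hydroxylases, green for lysyl oxidases). The height of a line has no meaning. Lox lies in the bar of the 6025 genes without reads, Loxl1 and P4ha3 to the right of it at -4.77 and -4.24, and Plod2 and P4ha1 at 7.72 and 7.63.

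The order of the 6 genes above 1 CPM, per kb of exon, was P4ha1, Plod2, Plod1, P4ha2, Plod3 and Loxl2. P4ha1 and Plod2 were 1.23 times apart and changed places with the longest transcript as the length. P4ha2 and Plod3 were at 10.3 and 10.2 CPM per kb of exon, but P4ha2 was 1.49 times as high as Plod3 per kb of the longest transcript and 1.92 times per kb of coding sequence. The order is one of means over OZO and OLO libraries together, and the order within either group was not examined. Without values of single libraries, none of these neighbours can be said to differ beyond their spread.

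Genes that work with these enzymes were mostly expressed. Of 15 partners and chaperones found in the table, 11 were at 1 CPM or more and 4 were below, and their median was 36.8 CPM. Serpinh1, the collagen chaperone HSP47, had 301.8 CPM, and Mia3, which helps procollagen leave the endoplasmic reticulum, had 245.8 CPM. The prolyl 3-hydroxylase P3h1 had 42.8 CPM and its partners Crtap and Ppib 50.7 and 42.2 CPM. P3h4, a binding partner of lysyl hydroxylase 1, the product of Plod1, had 0.0797 CPM, and Fkbp10, a chaperone linked to lysyl hydroxylase 2, the product of Plod2, had 0.647 CPM. In propeptide processing, 3 of 8 genes reached 1 CPM, and these were Pcolce, Bmp1 and Adamts14 with 46.4, 17.5 and 4.39 CPM.

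Collagen chains are the substrates, and those examined here were lower per kb than the 5 well expressed hydroxylase genes. Chains of other collagen types were not looked up. Of 20 chains examined, 11 reached 1 CPM and 9 did not. The highest per kb was Col4a5, a basement membrane chain, with 6.43 CPM per kb, followed by Col5a1, a fibrillar chain, with 3.88. All 20 chains were below Plod3 per kb, the lowest of the 5 well expressed hydroxylase genes, and 15 of the 20 were below Loxl2. Of 6 basement membrane chains 4 were at 1 CPM or more, as were 6 of 9 fibrillar chains and 1 of 5 microfibrillar and multiplexin chains. Col1a1, the major chain of skin collagen, had 1.70 CPM, and Col3a1 0.0553 CPM. Col1a1 and Col3a1 are also among the 5 fibroblast genes above.

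**Figure D3:**
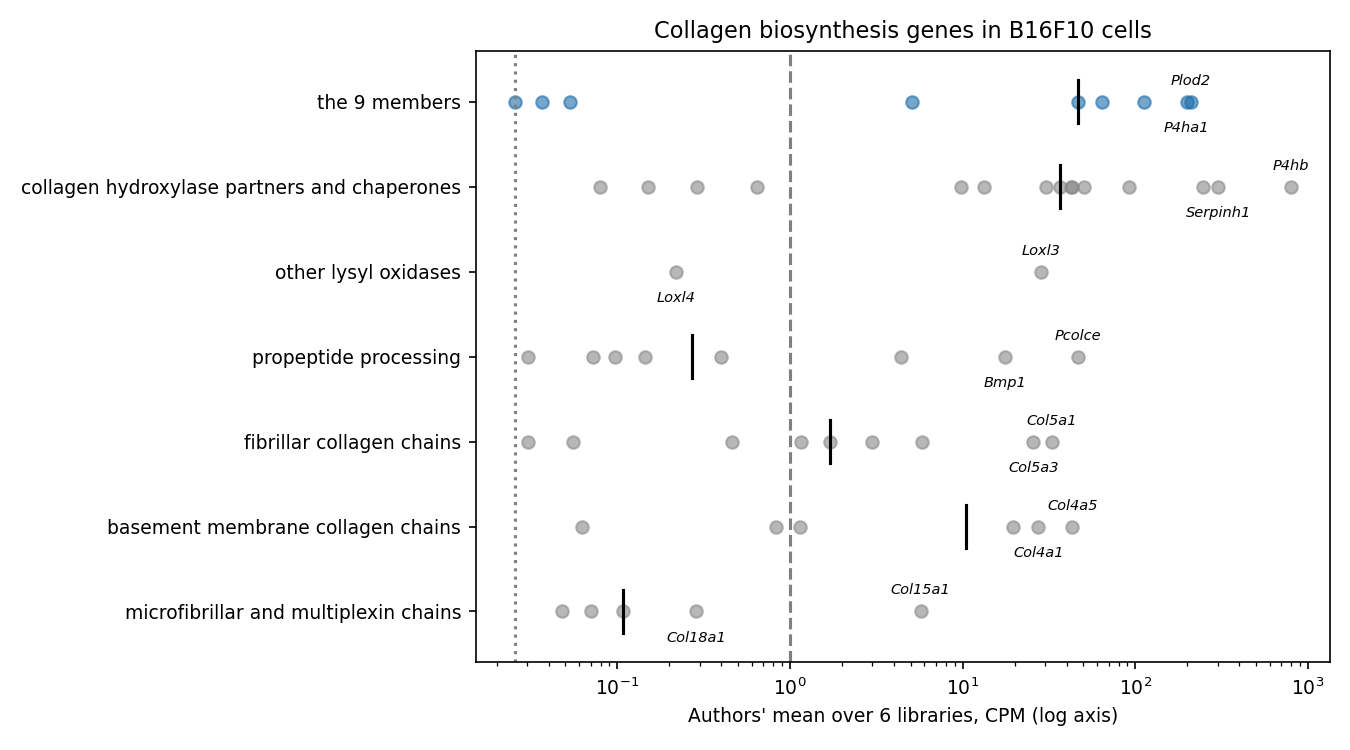
The authors' mean level over 6 libraries, in CPM on a log axis, for each of the 9 genes (blue) and for the genes of 6 lists of collagen biosynthesis (grey), 1 point per gene, with a black bar at the median of lists of more than 2 genes and the names of the 2 highest genes. The dotted line is the value of a gene without reads and the dashed line is 1 CPM. Plod2 is at 210.1 CPM and Col4a5, the rightmost collagen chain, at 43.2 CPM, values that are not divided by gene length.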

How the data were processed

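RNA of B16F10 cells (3 libraries with OZO, 3 with OLO, groups from the sample titles) was sequenced from a directional library. According to the methods and the submitters' processing notes, the authors aligned reads to mm10 with HISAT2 (version 2.1.0), counted them with featureCounts (2.1.1) and used limma-voom (3.58.1). The annotation and strand setting of the counting step are not given in the sources used here (a UCSC mm10 annotation is named for the StringTie estimates, which were not used). The deposited table holds 1 row per gene. Its mean log2 CPM over the 6 libraries was used. Its other 5 measurement columns (log2 fold change, moderated statistic, unadjusted and adjusted p-value, log odds) are the authors' own comparison of OZO with OLO and were not used, so no test was made. The planned tests needed values of single libraries.

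The lowest mean log2 CPM, shared by genes without reads, gave the geometric mean library size through the 0.5 reads that voom adds. Among 4855 genes with reads and a product of (2 × reads + 1) under 2000, all 4855 products were whole odd numbers within 1e-06. Total reads per gene are lower bounds, because a geometric mean does not exceed an arithmetic one. The recovery of library size, genes without reads, products and read sets was tested on simulated counts put through the same voom formula. Percentiles, ratios per kb and motif counts were not tested in this way. Positions and lengths came from GENCODE M21 (GRCm38), in which 23821 of 24065 Ensembl identifiers were found, and promoters from RefSeq. All 9 members were named by rule, with every gene of the lists open to naming, as were the 2 genes on each side of P4ha1 in level. Members and lists were chosen with earlier results of these data known. Sc65 is an older symbol of P3h4 and was counted once. Calculations ran in Python 3.11.15 with pandas 2.3.3, numpy 2.4.6, scipy 1.17.1 and matplotlib 3.10.9.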

Additional observations from a re-analysis of the deposited data

How the results depend on the processing

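No paired analysis was possible because each gene has only 1 mean over the 6 libraries. For the same reason edgeR or DESeq2 fits, count filters, another pseudocount and leaving out each library were not run. A RefSeq coding length was not used, and lengths from GENCODE, chosen after seeing the data, stood in for it. The median of the 9 genes lay at the percentile 82.4 of all 27179 genes, at 77.4 among the 21154 genes with reads and at 81.6 among the 25860 genes with a symbol. Lox stays at 0 in any set. Percentiles of the other genes were lower among genes with reads, as leaving out genes without reads makes necessary, and slightly lower among genes with a symbol, where those of P4ha1 and Plod2 stayed within the exact 95% binomial interval of the first value. That interval served only as a yardstick and is no error of the percentile, because the gene sets are nested and are not random samples. Per kb, P4ha1 over P4ha2 was 4.66 with joined exons, 2.32 with the longest transcript and 3.09 with the coding sequence. Plod2 over Plod1 was 2.34, 2.09 and 1.79, Plod2 over Plod3 was 3.81, 4.07 and 4.44, and Loxl3 over Loxl2 was 6.55, 7.24 and 5.74. The errors of these values are unknown, and depth limits P4ha3, Loxl1 and Lox, which had at most 40, 4 and 0 reads in all.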
